A study of Homo sapiens with 42 samples.

Results

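The 7 long noncoding RNAs (lncRNAs) MIR210HG, H19, MEG3, LUCAT1, NEAT1, MALAT1 and PVT1, all linked to hypoxia, were followed through poly-A RNA-seq of 786-O cells, a clear cell renal cell carcinoma line. They were chosen by gene symbol, and every library held 1 row for each of them among its 60609 genes, of which 16701 were lncRNA genes in GENCODE v44. 786-O cells lack VHL, the E3 ligase subunit that marks HIF-α proteins for degradation, and make no functional HIF-1α. Endogenous HIF-2α is therefore stable without hypoxia in every group, controls included, and all cells were grown under normal oxygen. The 42 libraries were made in 2 batches with 3 biological replicates in each group.

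Batch 1 had 27 libraries in 9 groups. They were unedited cells (WT), a clone with homozygous V5-Halo tags on endogenous HIF-1β (HIF-1β KIN), a clone tagged in the same way on endogenous HIF-2α (HIF-2α KIN), and 6 stable lines carrying a V5-Halo-tagged HIF-α transgene under the L30 promoter. The transgenes were HIF-1α, its DNA-binding mutant HIF-1α R30E, its dimerization mutant HIF-1αDM (R170A and V191D), HIF-2α, its DNA-binding mutant HIF-2α R27E, and its dimerization mutant HIF-2αDM (R171A and V192D). For HIF-2αDM the genotype entry names HIF-1α while the title and description name HIF-2α, and the latter were followed. Batch 2 had 15 libraries in 5 groups. These were WT, the HIF-1α line, the HIF-2α line and a pair of domain swaps, HIF-2α/1α (residues 1 to 365 of HIF-2α joined to 364 to 826 of HIF-1α) and HIF-1α/2α (residues 1 to 363 of HIF-1α joined to 366 to 870 of HIF-2α). The knock-in lines are each 1 clone, and the transgene lines were made by PiggyBac insertion and puromycin selection. RNA extraction and library kit differed between the batches, so the levels given are normalized within a batch and are not comparable between batches. Only responses over WT were tested between batches, in a joint fit normalized over both.

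HIF-1α and HIF-2α each pair with HIF-1β and bind hypoxia response elements, short DNA sites with the core ACGTG or GCGTG, through a structured N-terminal part that also holds the dimerization surfaces. The C-terminal part is mostly an intrinsically disordered region (IDR) that carries the oxygen-dependent degradation and transactivation domains. Among lncRNAs, MIR210HG is the host transcript of the microRNA most often used as a hypoxia marker. NEAT1 and MALAT1 are found in nuclear bodies and have been described as hypoxia-inducible.

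The promoters of MIR210HG, H19 and LUCAT1, on which the comparisons between the HIF isoforms turn, are shown because HIF binds its motifs at promoters as well as at distant sites. Each window runs from 250 bases before to 50 bases after the start in RefSeq on GRCh38.p14, read 5′ to 3′ on the gene's strand, with any ACGTG or GCGTG in capitals. MIR210HG lies on the minus strand of chromosome 11 and its window is chr11:568408-568707. H19 is on the same strand further along chromosome 11, with the window chr11:2001217-2001516. LUCAT1 is on the minus strand of chromosome 5, with the window chr5:91314353-91314652.
MIR210HG: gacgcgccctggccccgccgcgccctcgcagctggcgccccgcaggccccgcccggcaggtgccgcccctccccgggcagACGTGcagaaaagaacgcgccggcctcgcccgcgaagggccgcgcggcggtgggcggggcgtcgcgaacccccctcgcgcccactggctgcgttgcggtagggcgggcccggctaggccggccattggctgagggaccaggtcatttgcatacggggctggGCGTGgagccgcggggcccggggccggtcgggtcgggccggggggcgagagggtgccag
H19: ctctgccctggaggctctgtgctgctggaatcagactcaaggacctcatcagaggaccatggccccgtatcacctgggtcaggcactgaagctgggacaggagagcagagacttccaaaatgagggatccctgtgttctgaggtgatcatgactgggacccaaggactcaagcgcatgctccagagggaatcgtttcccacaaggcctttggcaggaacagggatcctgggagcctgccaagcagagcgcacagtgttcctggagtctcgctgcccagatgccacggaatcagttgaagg
LUCAT1: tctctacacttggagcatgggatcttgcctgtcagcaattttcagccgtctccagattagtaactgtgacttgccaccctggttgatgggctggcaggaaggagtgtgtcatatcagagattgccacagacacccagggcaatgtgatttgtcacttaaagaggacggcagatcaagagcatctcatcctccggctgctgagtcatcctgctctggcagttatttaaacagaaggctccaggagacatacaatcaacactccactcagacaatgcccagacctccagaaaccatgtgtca
The MIR210HG window held 2 matches, an ACGTG that began 170 bases before the start and a GCGTG that began 9 bases before it, and the windows of H19 and LUCAT1 held 0 on either strand. Of the 35116 RefSeq promoters of this length, 48.4% held at least 1 of the motifs on either strand, 21.4% held ACGTG and 36.5% held GCGTG. MALAT1 had windows with 2 and 1 GCGTG, and the 3 windows of MEG3 had 1, 1 and 0. The table had no entry for NEAT1 and PVT1. A match in such a window is a description of its letters only.

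MIR210HG and H19 each contain a microRNA, whose mature forms set what the host transcripts are best known for. The seed, bases 2 to 8, is in capitals.
hsa-miR-210-3p: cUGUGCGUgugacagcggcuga
hsa-miR-210-5p: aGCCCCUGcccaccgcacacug
hsa-miR-675-3p: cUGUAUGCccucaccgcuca
hsa-miR-675-5p: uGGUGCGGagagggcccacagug
The 4 seeds all differ. Poly-A RNA-seq reads the long host transcripts and not these mature forms, so the values given here are levels of the hosts.

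In GENCODE v44 on hg38, MIR210HG (ENSG00000247095.3) spans 565657 to 568457 and H19 (ENSG00000130600.19) spans 1995166 to 2004552, both on the minus strand of chromosome 11. NEAT1 (ENSG00000245532.9, 65422774 to 65445540) and MALAT1 (ENSG00000251562.8, 65497640 to 65508073) are neighbours on the plus strand of the same chromosome, 52.1 kb apart. LUCAT1 (ENSG00000248323.7) spans 91054834 to 91314547 on the minus strand of chromosome 5 and MEG3 (ENSG00000214548.18) spans 100779410 to 100861031 on the plus strand of chromosome 14. The reads were counted without regard to strand, so an overlapping gene on the opposite strand can alter a member's count in either direction. Such overlaps exist for LUCAT1 (4 of 7 overlapping genes, among them ADGRV1), MALAT1 (2 of 4), H19 (2 of 3) and MEG3 (1 of 7), and for none of the genes overlapping MIR210HG or NEAT1. ADGRV1 itself stayed between 1.06 and 23.5 normalized counts in batch 1 and between 3.89 and 39.4 in batch 2. Spans and overlaps are those of GENCODE v44, while the ID versions are those of the counts, made on GENCODE v32.

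PVT1 (ENSG00000249859.11), the lncRNA next to MYC and host of several microRNAs, spans 127794526 to 128187101 on the plus strand of chromosome 8, and 3 of its 10 overlapping genes are on the opposite strand.

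Libraries held 42377599 to 101186554 reads in batch 1 and 76366799 to 109642159 in batch 2, and the 7 members took 0.00227% to 0.00924% and 0.0114% to 0.0251% of them. Levels are given as normalized counts, reads scaled to the median library of the batch with TMM factors. The libraries numbered 3 in batch 1 were the deepest of their group (72801922 to 101186554 reads). They had the lowest level of their group in 9 of 9 groups for PVT1, in 8 of 9 for MIR210HG and in 6 of 9 for LUCAT1. For NEAT1 they had the highest level in 6 of 9 groups and the lowest in 2. The main values are therefore also given without them. HIF1A averaged 241 normalized counts in the WT cells of batch 1 and 3021, 2498 and 2237 in the HIF-1α, HIF-1α R30E and HIF-1αDM lines, while EPAS1, which encodes HIF-2α, averaged 14419 in WT and 44450, 56366 and 48400 in the HIF-2α, HIF-2α R27E and HIF-2αDM lines. In batch 2 HIF1A rose from 296 in WT to 13293 in the HIF-1α line, and EPAS1 from 12747 to 42967 in the HIF-2α line. Both swaps add reads to both genes, and HIF1A averaged 9721 in HIF-2α/1α and 9831 in HIF-1α/2α while EPAS1 averaged 20952 and 51943. HIF1A was also called higher in the HIF-2α line, at 905 in batch 1 and 945 in batch 2, and EPAS1 was called lower in HIF-2α KIN, at 6143. The part of these unequal levels in the comparisons between lines was not tested. Of 8 kidney or ccRCC markers, 7 had a median over 50 in both batches, while the 3 endothelial and the 3 immune markers had medians under 5. Of 4 fibroblast markers, 2 had a median over 50 in both batches. In bulk RNA a change in the number of cells and a change in RNA per cell cannot be told apart.

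A gene was called when edgeR's quasi-likelihood test gave a Benjamini-Hochberg adjusted p of at most 0.01 over all genes tested and the fold change was at least 2. A mean of at least 0.5 normalized counts over the batch was required. It kept 6 members in batch 1, where MEG3 had 0 reads, and 7 in batch 2. In batch 1 H19 had 28 reads in the HIF-2α line, beside 7 in HIF-1α and 1 each in R30E and R27E. In batch 2 it had 47 and 413 in HIF-2α and HIF-1α/2α, beside 5 and 2 in HIF-1α and HIF-2α/1α. MEG3 had 6 and 4 in HIF-2α and HIF-1α/2α only. Both thus passed largely through the groups where they are high, and their tests are not independent of this filter. All comparisons with WT in a batch share its WT libraries, and the p-values measure only the spread between these cultures. In batch 1, HIF-1α over WT gave 1 called member of 6 with reads, MIR210HG, against 3.79% of all 23394 genes. H19 was not testable where both groups had 0 reads, which leaves 5 members there. HIF-2α over WT gave 2 of 6, MIR210HG higher and MALAT1 lower, against 5.72%. HIF-1α R30E gave 1 of 6, LUCAT1 lower, against 2.61%. The other 5 groups of batch 1 gave 0 called members by edgeR and 0 by DESeq2. The share of all genes called was 1.38% in HIF-1β KIN, where 0 of 5 members had an unadjusted p under 0.05, and 4.15% in HIF-2α KIN, where 1 of 5 did. It was 0.457% in HIF-1αDM (1 of 5 members), 0.496% in HIF-2α R27E (0 of 6) and 0.474% in HIF-2αDM (2 of 5). When the fit also took the replicate number as a block, which pairs the libraries in the HIF-1αDM and HIF-2α R27E comparisons, the genes called went from 107 to 207 and from 116 to 213, and the members called stayed at 0.

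In batch 2, where 28757 genes were tested, HIF-1α over WT called 1 of 6 members against 4.38% of all genes, and HIF-2α/1α called 1 of 6 against 3.49%. In both lines it was MIR210HG. HIF-2α called 3 of 7 against 7.57% and HIF-1α/2α called 3 of 7 against 7.77%, in both MIR210HG, H19 and NEAT1, all higher. H19 is counted here although it passed the count filter largely through these lines. Of the lncRNA genes tested, 2.42%, 1.73%, 5.56% and 6.06% were called in the same 4 comparisons.

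**Figure D1:**
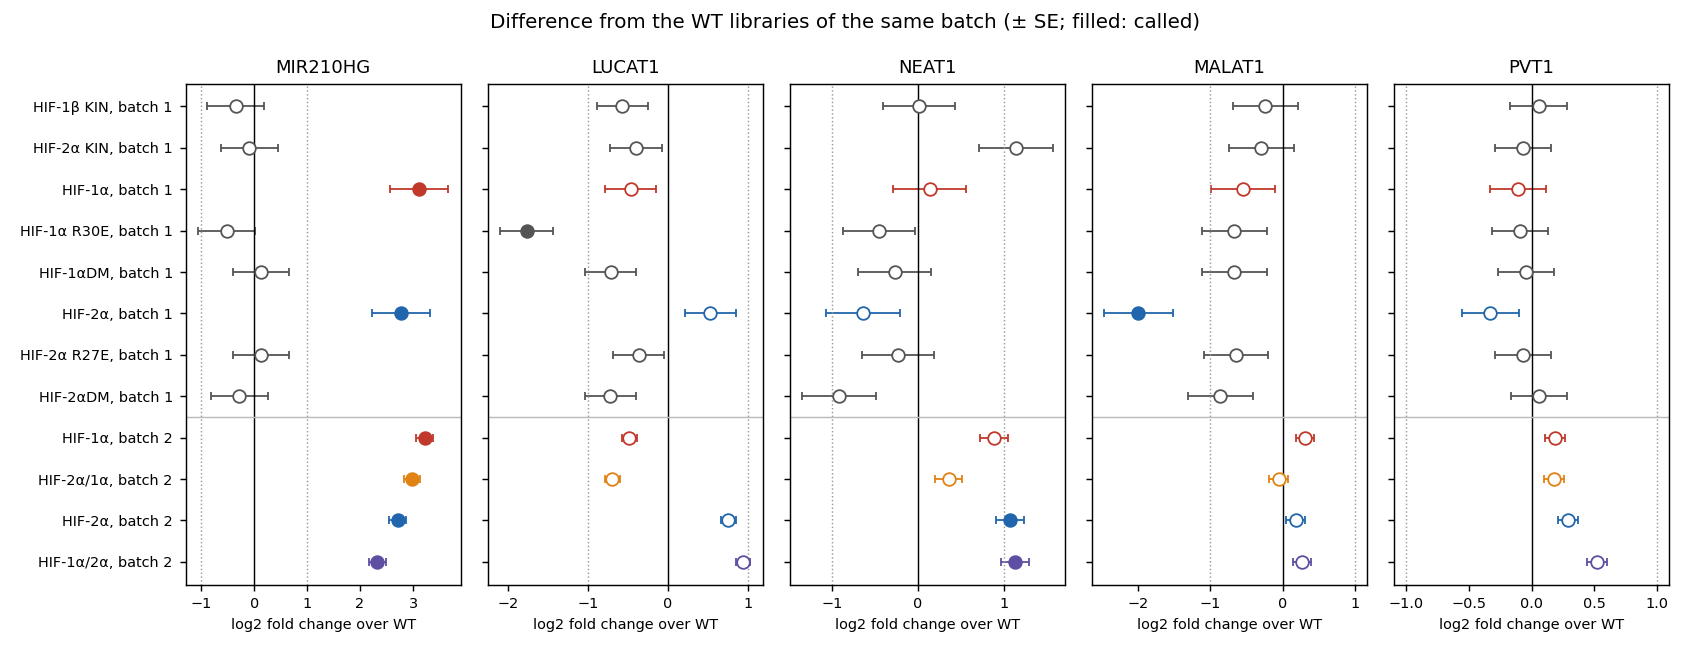
Log2 fold change over the WT libraries of the same batch (x axis) for 5 members in each line (y axis), with the standard error as bars, filled points for called differences and dotted lines at a fold change of 2. MIR210HG is filled in the HIF-1α, HIF-2α and domain swap lines, between 2.33 and 3.22, and in no other line, while LUCAT1 lies on opposite sides of 0 in the lines that carry the HIF-1α and the HIF-2α IDR of batch 2.

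MIR210HG, the host transcript of miR-210, was higher in the lines with an unmutated HIF-α transgene and near WT in the others. In batch 1 its normalized counts were 83.0, 107.8 and 34.9 in WT and 797, 795 and 356 in the HIF-1α line. In the HIF-2α line they were 672, 585 and 281. Every library of these lines stood above every WT library, with mean levels of 649 ± 254 and 513 ± 205 against 75.2 ± 37.0 (SD, n = 3). The log2 fold change was 3.11 ± 0.55 (SE, 8.66-fold, adjusted p = 0.000315) for HIF-1α and 2.77 ± 0.55 (6.83-fold, adjusted p = 0.000688) for HIF-2α. Without all libraries numbered 3 these values were 3.10 and 2.74.

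The mutants left MIR210HG near WT. HIF-1α R30E, mutated to impair DNA binding, read 79.2, 62.9 and 17.0, and HIF-1αDM, mutated to impair pairing with HIF-1β, read 66.4, 138.7 and 42.5. HIF-2α R27E read 66.5, 98.7 and 81.9 and HIF-2αDM read 58.7, 80.8 and 46.0. All 4 overlapped WT, and with the 2 knock-in clones their log2 differences from WT ran from -0.52 to 0.14. Set directly against its mutants, the HIF-1α line was higher by 3.63 ± 0.57 on the log2 scale than R30E (12.4-fold, adjusted p = 0.000131) and by 2.98 ± 0.55 than HIF-1αDM (7.87-fold, adjusted p = 0.00121). These contrasts called 1 of 6 members each, against 1.75% and 1.37% of all genes. The HIF-2α line was higher by 2.63 ± 0.54 than R27E (6.21-fold, adjusted p = 0.00163) and by 3.05 ± 0.56 than HIF-2αDM (8.30-fold, adjusted p = 0.000378), again 1 of 6 members each, against 3.63% and 3.97%. The call over HIF-1αDM was lost without HIF-1αDM library 1 (log2 2.84, adjusted p = 0.0179) or library 3 (2.69, 0.0141), and that over R27E without HIF-2α library 1 (2.39, 0.0103) or R27E library 1 (2.53, 0.0147).

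**Figure D2:**
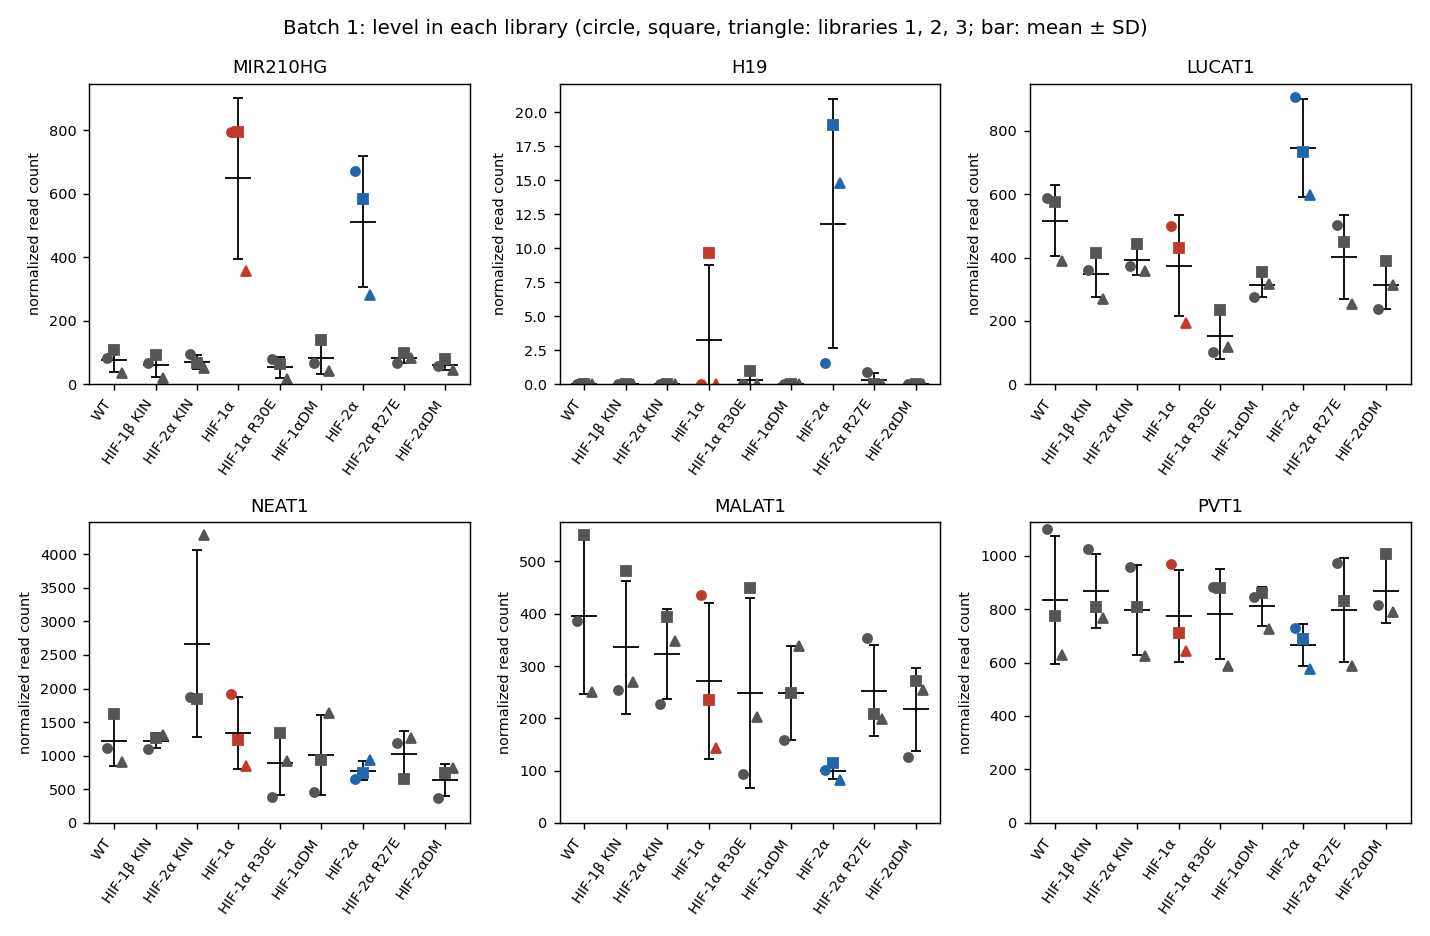
Normalized read count (y axis, from 0) of 6 members in the 27 libraries of batch 1, by group (x axis), with circle, square and triangle for libraries 1, 2 and 3 and bars for the mean and SD. MIR210HG lies at 281 or above in the HIF-1α and HIF-2α lines and at 138.7 or below in the other 21 libraries, and MALAT1 is at 115 or below in the HIF-2α line.

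In batch 2 MIR210HG read 67.1, 58.8 and 71.9 in WT. It read 675, 592 and 566 in the HIF-1α line and 543.5, 570.3 and 447 in HIF-2α/1α. The HIF-2α line gave 445, 473 and 369.9, and HIF-1α/2α gave 279, 353 and 360.4. The log2 fold changes over WT were 3.22 ± 0.15, 2.99 ± 0.15, 2.71 ± 0.16 and 2.33 ± 0.16, and the highest of the adjusted p-values was 7.02e-17. All 4 lines stood above WT in every library, by 9.29-, 7.92-, 6.53- and 5.01-fold. In the order of mean levels the lines with the HIF-1α IDR came first. HIF-1α and HIF-2α/1α, which share the HIF-1α IDR and differ in the structured part, overlapped each other, while HIF-1α/2α lay below every library of the other 3 lines and HIF-2α lay below HIF-1α and overlapped HIF-2α/1α.

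The domain swaps allow each part of the protein to be compared over the 4 lines. The mean of the lines with the HIF-2α IDR was below that of the lines with the HIF-1α IDR for MIR210HG by a log2 difference of -0.58 ± 0.09 (adjusted p = 1.23e-06), which is 1.499-fold lower and under the minimum for a call. Exchanging the structured part gave 0.08 ± 0.09 (adjusted p = 0.673), with a 95% interval from -0.11 to 0.26. HIF-2α against HIF-1α gave -0.51 ± 0.13 (adjusted p = 0.00219) in batch 2 and -0.34 ± 0.50 (adjusted p = 0.84, interval -1.38 to 0.70) in batch 1, an interval that holds the batch 2 value. The IDR difference on the HIF-2α structured part minus that on the HIF-1α structured part was 0.61 ± 0.18 (adjusted p = 0.0258).

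**Figure D3:**
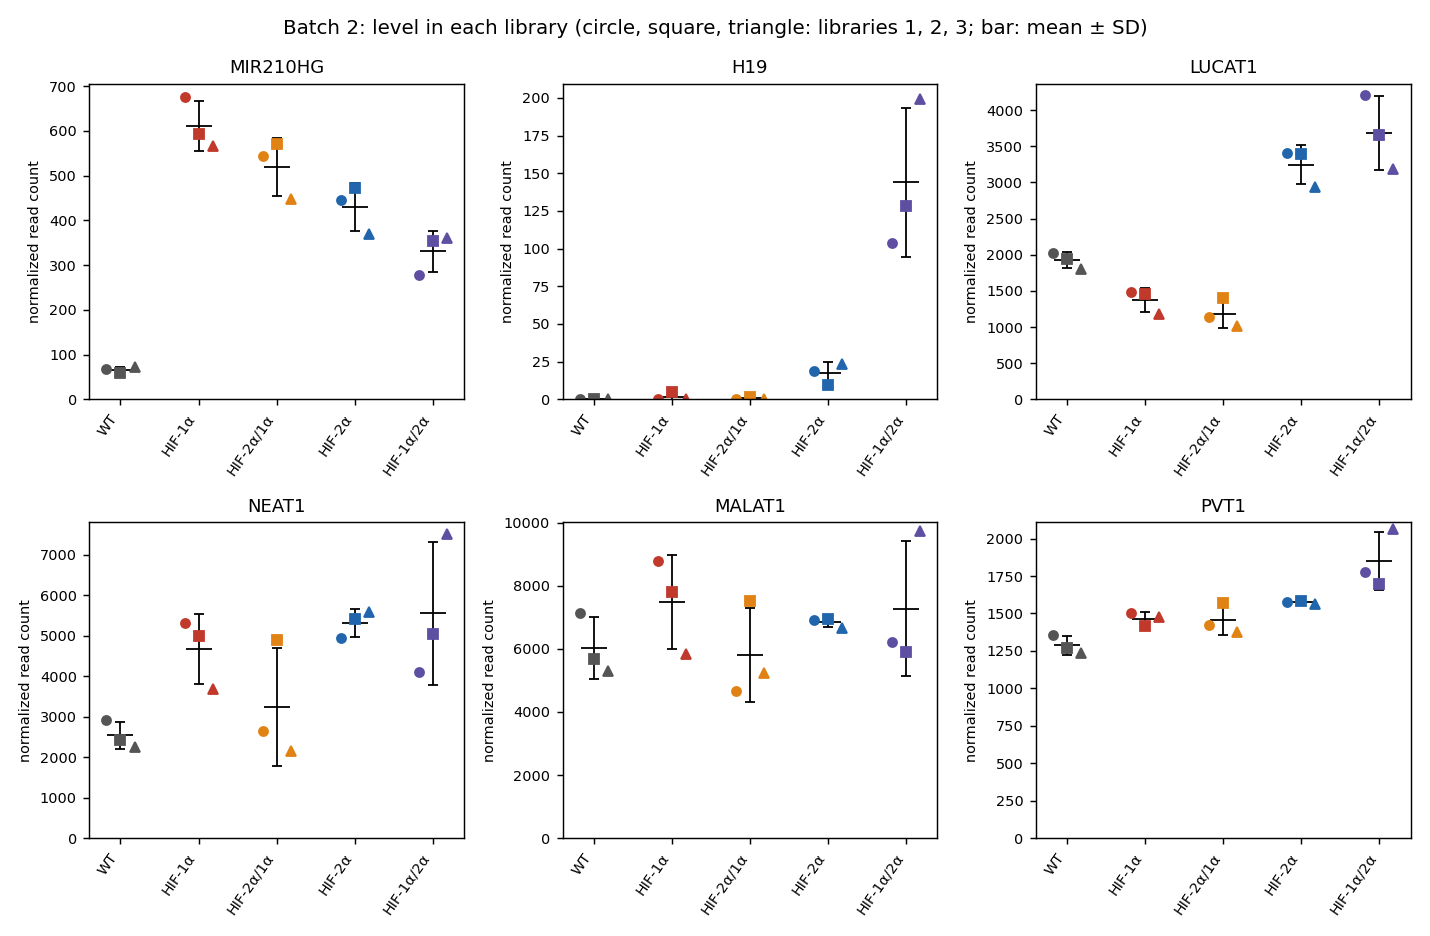
Normalized read count (y axis, from 0) of 6 members in the 15 libraries of batch 2, by group (x axis), with circle, square and triangle for libraries 1, 2 and 3 and bars for the mean and SD. H19 lies between 103.8 and 199 in HIF-1α/2α and at 23.7 or below elsewhere, and LUCAT1 is above WT in both lines with the HIF-2α IDR and below WT in both with the HIF-1α IDR.

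H19, an imprinted fetal lncRNA read from the maternal allele, had 0 reads in the 6 WT libraries of both batches. In batch 1 it was read in every library of the HIF-2α line, at 1.6, 19.1 and 14.8 normalized counts from 1, 13 and 14 reads. It was also read in 1 library each of HIF-1α (9.7, from 7 reads), HIF-1α R30E (1 read) and HIF-2α R27E (1 read), and in 0 libraries of the knock-in clones and both dimerization mutants. The mean of 11.8 ± 9.13 in HIF-2α was at least 4.09-fold higher than WT, with WT set at the floor of 3 reads per library, and the test did not pass (adjusted p = 0.036).

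In batch 2 H19 read 19.0, 9.3 and 23.7 in the HIF-2α line and 103.8, 128.6 and 199 in HIF-1α/2α. The HIF-1α line had 4.9 in 1 library (5 reads) and 0 in the others, and HIF-2α/1α had 1.7 in 1 library (2 reads) and 0 in the others. The HIF-2α line was therefore at least 5.71-fold higher than WT (adjusted p = 1.11e-06) and HIF-1α/2α at least 47.4-fold higher (adjusted p = 9.55e-13), both called. H19 passed the count filter largely through these lines, so its tests in this batch are not independent of that filter. H19 was higher in HIF-2α than in HIF-1α by 3.33 ± 0.71 on the log2 scale (adjusted p = 0.000282), a value that rests on 47 reads against 5 and moved between 2.77 and 7.11 as single libraries were left out. Over the 4 lines the IDR difference was 5.40 ± 0.51 (adjusted p = 5.94e-12), and it moved between 5.12 and 7.29. The mean for the HIF-2α structured part was lower by a log2 difference of -2.07 ± 0.68 (adjusted p = 0.0282), not called, and moved between -3.41 and -0.18 as single libraries were left out. It became a call without HIF-1α library 3 (-2.35, adjusted p = 0.00904) or HIF-2α/1α library 2 (-3.41, adjusted p = 0.00903).

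MEG3, the maternally read lncRNA of the DLK1 imprinted cluster and one that many tumours silence, was at 0 reads in all 27 libraries of batch 1 and in 11 of 15 in batch 2. The exceptions were 5 and 1 reads in the HIF-2α line and 3 and 1 reads in HIF-1α/2α. At 5.0 normalized counts or less MEG3 passed no test (HIF-2α over WT, adjusted p = 0.121). The count of the neighbouring gene RTL1, a paternally read retrotransposon-derived gene 18.7 kb away, did change. RTL1 is on the minus strand, and plus-strand microRNA genes lie close by, among them MIR431 and MIR127 (19.98 and 21.95 kb from MEG3). The counts ignore strand, so RTL1 cannot be told apart here from transcripts of the opposite strand. RTL1 averaged 9.78 normalized counts in the WT cells of batch 2, 153 and 288 in the HIF-1α and HIF-2α lines, and 43.6 and 604 in the swaps HIF-2α/1α and HIF-1α/2α, with log2 fold changes over WT of 3.91, 4.82, 2.08 and 5.88 in the same order (highest adjusted p = 3.55e-06). In batch 1 RTL1 averaged 2.63 in WT, 58.8 in HIF-1α and 328 in HIF-2α, against 18.1 in HIF-1α R30E and 3.21 in HIF-2α R27E, and 8.87 and 6.62 in the dimerization mutants of HIF-1α and HIF-2α.

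LUCAT1 is a stress-responsive lncRNA known from airway cells exposed to cigarette smoke. It lay on opposite sides of WT in the HIF-1α and HIF-2α lines of batch 2. In batch 2 it read 2027, 1937 and 1803 in WT, 1490.4, 1455 and 1186 in the HIF-1α line, and 1141, 1397 and 1009 in HIF-2α/1α. The HIF-2α line gave 3403, 3393 and 2935 and HIF-1α/2α gave 4204, 3650.1 and 3184. Both lines with the HIF-1α IDR were below every WT library and both lines with the HIF-2α IDR were above. The log2 fold changes over WT were -0.48 ± 0.09, -0.70 ± 0.10, 0.75 ± 0.09 and 0.94 ± 0.09, all with an adjusted p of 8.72e-05 or less and all under a fold of 2. HIF-1α/2α passed the fold minimum without its library 3 (1.03).

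Compared with each other the lines passed the fold minimum. LUCAT1 was 2.36-fold higher in HIF-2α than in HIF-1α (log2 1.24 ± 0.09, adjusted p = 1.28e-14), a contrast that called 2 of 7 members, LUCAT1 and H19, against 3.77% of all genes. The IDR difference over the 4 lines was 1.44 ± 0.07 (2.71-fold, adjusted p = 2.82e-22), again with LUCAT1 and H19 as the 2 of 7 members called, against 4.4% of all genes and 3.76% of lncRNA genes. H19 is counted in both contrasts with the limit of the filter given above. Exchanging the structured part gave -0.20 ± 0.07 for LUCAT1 (adjusted p = 0.0307), and the interaction of both parts gave 0.03 ± 0.13. Of 7 members, 0 were called for the structured part by edgeR and 0 by DESeq2, with 5 at an unadjusted p under 0.05 and 1.04% of all genes called. For the interaction 0 were called by both tools, with 2 under 0.05 and 1.18% of all genes called.

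**Figure D4:**
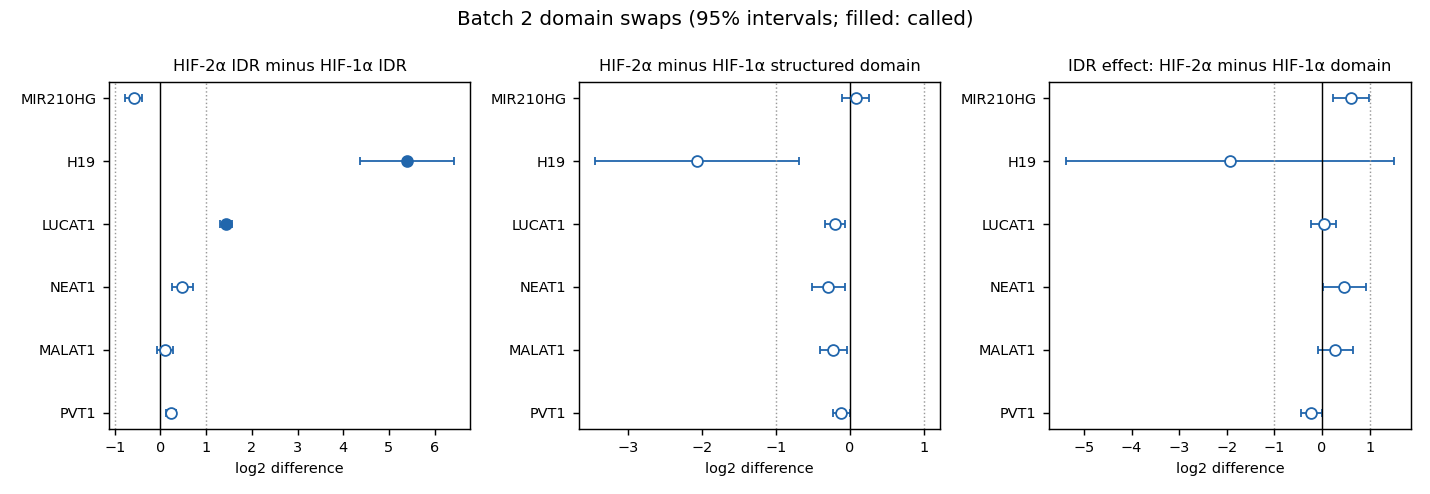
Log2 difference (x axis) of 6 members (y axis) between the batch 2 lines with the HIF-2α and the HIF-1α IDR, between those with the HIF-2α and the HIF-1α structured part, and the interaction of both, with 95% intervals, filled points for called differences and dotted lines at a fold of 2. LUCAT1 at 1.44 and H19 at 5.40 are filled in the IDR panel, MIR210HG is at -0.58 there, and 0 points are filled in the other panels.

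In batch 1 LUCAT1 read 587, 574 and 389 in WT, 499.7, 429 and 194 in the HIF-1α line and 908, 735 and 597 in the HIF-2α line. The HIF-2α libraries lay above all WT libraries, with a log2 fold change of 0.53 ± 0.32 (adjusted p = 0.306), and the HIF-1α line overlapped WT (-0.47 ± 0.32, adjusted p = 0.472). HIF-2α exceeded HIF-1α by 1.00 ± 0.32 (adjusted p = 0.0744), and this became a call when the replicate numbers, which pair these libraries, entered the fit as a block (1.04, adjusted p = 0.00295). Without the block 0 of 6 members were called in this contrast by edgeR and 0 by DESeq2, with 2 at an unadjusted p under 0.05, against 2.4% of all genes. LUCAT1 was higher in HIF-2α than in HIF-2αDM by 1.25 ± 0.32 (adjusted p = 0.0117 by edgeR, 0.000967 by DESeq2). It was higher than in R27E by 0.89 ± 0.32 (adjusted p = 0.0908). HIF-2αDM and R27E were themselves below WT on average, with log2 differences of -0.72 and -0.36. So were HIF-1αDM (-0.72), HIF-1β KIN (-0.57) and HIF-2α KIN (-0.40), and none of these differences was called.

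HIF-1α R30E gave the lowest LUCAT1 levels of the batch, 102, 235 and 117, which lay below every WT library. The log2 fold change was -1.77 ± 0.33 (3.40-fold lower, adjusted p = 0.000817), and -1.74 without all libraries numbered 3. The call was lost without R30E library 1 (-1.56, adjusted p = 0.0109) or library 3 (-1.61, adjusted p = 0.0111). The HIF-1α line was higher than R30E by 1.30 ± 0.33 (adjusted p = 0.0198 by edgeR, 0.00194 by DESeq2), and edgeR called it without HIF-1α library 3 (1.61, adjusted p = 0.00223) or R30E library 2 (1.78, adjusted p = 0.00298). The neighbouring gene ARRDC3, an arrestin-domain gene 54.1 kb from LUCAT1, was called higher in the HIF-2α line over WT in both batches (log2 1.32 and 1.00), in HIF-1α/2α (1.14) and in the IDR difference (1.53), and in HIF-1α over R30E (1.27).

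NEAT1, a lncRNA known from paraspeckles, rose in batch 2. Its counts are poly-A reads per gene and do not separate its isoforms, so nothing was read from them about paraspeckles. It read 2913, 2431 and 2262 in WT and 5322, 4993 and 3692 in the HIF-1α line. The HIF-2α line gave 4938, 5419 and 5590.5, and HIF-1α/2α gave 4096, 5045 and 7513. In all 3 lines every library was above WT. HIF-2α/1α read 2657, 4892 and 2156 and overlapped WT. The log2 fold change was 1.07 ± 0.16 for HIF-2α (2.10-fold, adjusted p = 4.22e-07) and 1.13 ± 0.16 for HIF-1α/2α (2.19-fold, adjusted p = 1.27e-07), both called. It was 0.88 ± 0.16 for HIF-1α (adjusted p = 2.83e-05), under a fold of 2, and 0.36 ± 0.16 for HIF-2α/1α (adjusted p = 0.113). Both calls rest on values close to the fold minimum. HIF-2α gave 0.99 without WT library 3, HIF-1α/2α gave 0.85 without its own library 3, and HIF-1α gave 1.02 and became a call without its library 3. The IDR difference was 0.48 ± 0.11 (adjusted p = 0.000602), under a fold of 2.

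In batch 1 NEAT1 passed no test. WT read 1113, 1619 and 908, the HIF-1α line 1912, 1234 and 852, and the HIF-2α line 658, 743 and 933. Both lines overlapped WT, with log2 differences of 0.14 ± 0.42 and -0.64 ± 0.43. The highest levels were in the HIF-2α KIN clone, at 1877, 1849 and 4277, all above WT, where the difference of 1.14 ± 0.43 (adjusted p = 0.0933) fell to 0.47 without the libraries numbered 3. The lowest were in HIF-2αDM, at 374, 737 and 814, all below WT (-0.92 ± 0.43, adjusted p = 0.577).

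MALAT1, a nuclear speckle lncRNA whose 3′ end forms a triple helix in place of a poly(A) tail, was lower in the HIF-2α line of batch 1. It read 387, 550.4 and 251 in WT and 101, 115 and 82.4 in the HIF-2α line, with no overlap. The log2 fold change was -1.998 ± 0.47 (4.00-fold lower, adjusted p = 0.00425). The call was lost in 5 of 6 fits that left out a single library of these groups, in which the value ran from -2.24 to -1.69 with an adjusted p of up to 0.0317, and it was kept without all libraries numbered 3 (-2.10, adjusted p = 0.00374). The 5 libraries were WT 1 and 2 (-1.99 and -1.69) and HIF-2α 1, 2 and 3 (-2.01, -2.12 and -1.86). Against R27E the difference was -1.35 ± 0.47 (adjusted p = 0.0763), against HIF-2αDM -1.13 ± 0.47 (adjusted p = 0.147) and against HIF-1α -1.45 ± 0.47 (adjusted p = 0.0744), all with no overlap of libraries and all short of a call.

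In batch 2 MALAT1 did not follow. It read 7148, 5673 and 5289.7 in WT and 6922, 6961 and 6667 in the HIF-2α line, a difference of 0.18 ± 0.13 (adjusted p = 0.302), and all 4 lines overlapped WT. Per kilobase of exon, the order of the members in WT cells also differed between the batches. NEAT1 led batch 1 with 53.3 normalized counts per kilobase, followed by MALAT1 with 38.0, PVT1 with 32.8, MIR210HG with 32.4 and LUCAT1 with 31.2. MALAT1 led batch 2 with 579, followed by LUCAT1 with 116, NEAT1 with 111, PVT1 with 50.6 and MIR210HG with 28.4. The length was that of all GENCODE v44 exons of a gene joined, whichever isoforms the cells made. Isoform use, poly-A capture, extraction, kit and batch cannot be told apart in these orders.

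PVT1 was called in 0 comparisons by edgeR and by DESeq2. In batch 1 its levels ran from 576 to 1098 over the 27 libraries, and the log2 differences from WT lay between -0.33 and 0.06. In batch 2 it read 1359, 1268 and 1234 in WT and 1780, 1698 and 2066 in HIF-1α/2α, the highest of the 4 lines (0.52 ± 0.08, 1.44-fold, adjusted p = 3.97e-07). The HIF-2α line, at 1577, 1581 and 1566, was also above WT (0.29 ± 0.08, adjusted p = 0.00274). HIF-1α and HIF-2α/1α differed from WT by 0.19 and 0.18, with adjusted p-values of 0.0879 and 0.105. Every library of the 4 lines was above the WT libraries, and all of these differences were under a fold of 2.

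With the groups of a batch ordered by mean level, adjoining groups were compared by whether their libraries overlapped. The share over all genes was not counted, so these numbers describe the order of the members' own levels only. In batch 1 the libraries of adjoining groups did not overlap in 1 of 8 steps for MIR210HG, 2 of 8 for LUCAT1, 1 of 8 for MALAT1 and 0 of 8 for H19, NEAT1 and PVT1. In batch 2 it was 2 of 4 steps for MIR210HG, LUCAT1 and H19, 3 of 4 for PVT1 and 0 of 4 for NEAT1 and MALAT1.

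Lines named HIF-1α and HIF-2α were present in both batches. Their responses over WT can therefore be set against each other in a joint fit of 18 libraries and 29228 genes. Its TMM factors were taken over all 18 libraries, so its values can differ from those of the separate fits. MIR210HG responded to about the same degree, and batch 2 minus batch 1 was -0.08 for HIF-1α (95% interval -1.05 to 0.90) and -0.22 for HIF-2α (-1.19 to 0.75). LUCAT1 gave -0.18 (-0.83 to 0.47) and 0.08 (-0.56 to 0.73). The HIF-2α responses of NEAT1 and MALAT1 were further apart, by 1.56 ± 0.31 and 2.04 ± 0.39. Their adjusted p-values were 0.0522 and 0.0439 by edgeR and 0.000815 and 0.000378 by DESeq2, so the call depended on the tool. It also depended on the replicate block. With the block in edgeR's fit NEAT1 and MALAT1 were called for the HIF-2α response (1.52 and 2.00, adjusted p = 5.19e-23 and 5.06e-31) and for the HIF-1α response (0.59 and 0.71, adjusted p = 0.00562 and 0.000532). The numbers pair the HIF-1α and WT libraries in batch 1 and not in batch 2. Without WT library 3 of batch 1 the MALAT1 difference was 2.28 (adjusted p = 0.00657 by edgeR). By edgeR 0 of 7 members were called for HIF-1α, with 0 under an unadjusted p of 0.05, and 0 of 7 for HIF-2α, with 2 under it. Of all genes 0.00342% and 0% were called in the 2 tests, and DESeq2 called 0 and 2 members. The 1 gene that edgeR called for HIF-1α was HIF1A itself. HIF1A averaged 241 in WT and 3021 in the HIF-1α line of batch 1, and 296 and 13293 in batch 2. The part of this unequal HIF1A rise over WT in the members' responses was not tested.

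**Figure D5:**
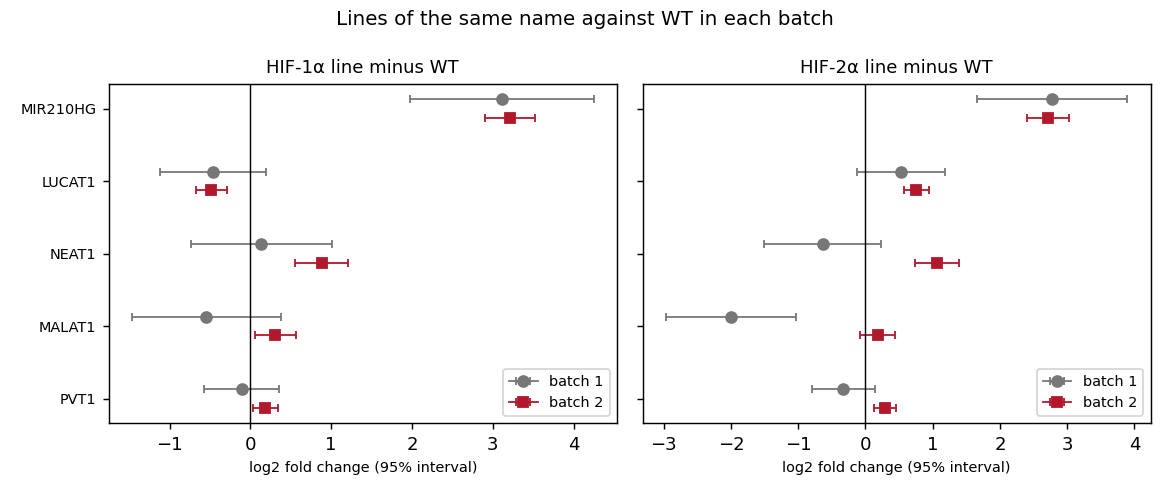
Log2 fold change over WT (x axis, with 95% intervals) of 5 members (y axis) in the HIF-1α and HIF-2α lines, with grey circles for batch 1 and red squares for batch 2. MIR210HG and LUCAT1 have overlapping intervals in both lines, and MALAT1 in the HIF-2α line lies at -1.998 in batch 1 and at 0.18 in batch 2.

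Among 30 other lncRNAs linked to hypoxia, 27 were tested in batch 1 and 28 in batch 2. The list was chosen with earlier results of these data known. The HIF-1α line called 2 of 27 higher in batch 1, HAS2-AS1 and MIR31HG, beside 1.15% of lncRNA genes and 3.79% of all genes called. In batch 2 it called 3 of 28 higher, the same pair and UCA1, beside 2.42% and 4.38%. The HIF-2α line called 2 of 27, MIR155HG and MIR31HG, beside 2.45% and 5.72%. In batch 2 it called 3 of 28, HAS2-AS1, MIAT and MIR31HG, beside 5.56% and 7.57%. HAS2-AS1, antisense to hyaluronan synthase 2, averaged 4.41 normalized counts in the WT cells of batch 2 and 85.0 and 51.6 in the HIF-1α and HIF-2α lines, with 54.6 in HIF-2α/1α and 80.6 in HIF-1α/2α. MIR31HG, the host of miR-31, averaged 76.4 in the WT cells of batch 1, 229 in HIF-1α and 213 in HIF-2α, and also 225 in HIF-1α R30E, where it was called. UCA1 went the other way to LUCAT1, with 1546 and 1028 in the batch 2 lines with the HIF-1α IDR and 462 and 499 in those with the HIF-2α IDR, beside 588 in WT. In batch 1 UCA1 was also called higher in both knock-in clones, where it averaged 1363 (HIF-1β KIN) and 1831 (HIF-2α KIN) against 568 in WT, and it averaged 1024 in HIF-1α and 945 in HIF-1α R30E. The median log2 difference of the list was 0.08 in both the HIF-1α and the HIF-2α line of batch 1, beside -0.03 and -0.09 over all genes, and 0.17 and 0.22 in batch 2, beside 0.03 and 0.07.

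For comparison, 12 protein-coding HIF targets, also chosen with earlier results of these data known, were counted in the same fits. In batch 1, 10 of 12 were called higher in the HIF-1α line and 9 of 12 in the HIF-2α line, beside 3.79% and 5.72% of all genes called. It was 1 of 12 in R27E, beside 0.496%, and 0 of 12 in HIF-1αDM and HIF-2αDM, beside 0.457% and 0.474%. In R30E and HIF-2α KIN 3 of 12 each were called lower, beside 2.61% and 4.15%. In batch 2, 9 of 12 were higher in the HIF-1α line and 10 of 12 in the HIF-2α line, beside 4.38% and 7.57% of all genes called. It was 5 of 12 in HIF-2α/1α and 9 of 12 in HIF-1α/2α, beside 3.49% and 7.77%. Of genes within 100 kb of a member, which include NEAT1 and MALAT1 themselves, 2 of 38 were called higher and 0 lower in the HIF-1α line of batch 1, beside 3.79% of all genes called, and 4 of 38 were called higher and 1 lower, MALAT1, in the HIF-2α line, beside 5.72%. In batch 2, 4 of 46 were called higher in HIF-1α and 4 in HIF-2α/1α, beside 4.38% and 3.49%, and 8 in HIF-2α and 7 in HIF-1α/2α, beside 7.57% and 7.77%, with 0 lower in each. LMNTD2, 4.92 kb from MIR210HG, was called higher in the HIF-2α line of both batches (log2 1.74 and 1.90) and in all 4 lines of batch 2. LTBP3, which binds latent TGF-β and lies 30.5 kb from MALAT1, was called higher in the HIF-1α, HIF-2α, HIF-1α R30E, HIF-1αDM and HIF-2α KIN lines of batch 1, a DNA-binding mutant, a dimerization mutant and a knock-in clone among them.

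The genes whose log2 levels followed a member most closely over the 42 libraries, each centred on its batch, were picked by Pearson's r among 12457 genes, as a description. For MIR210HG they were TCAF2 (r = 0.923) and SPAG4 (0.902), and for LUCAT1 AC022210.2 (0.886) and SYTL3 (0.875). For NEAT1 they were CDK5RAP3 (0.920) and CCDC57 (0.864), for MALAT1 GSDMB (0.870) and STAG3L5P (0.869), and for PVT1 RPS13 (0.838) and MRPS18C (0.837). Within batch 2 alone r was lower for CCDC57 (0.620), GSDMB (0.367), STAG3L5P (0.713), RPS13 (0.734) and MRPS18C (0.496), and between 0.896 and 0.992 for the other 5. NEAT1 and MALAT1 moved together within groups, with r = 0.774 over the 27 libraries of batch 1 and 0.876 over the 15 of batch 2 after subtracting group means. Members on different chromosomes reached similar values in a single batch. In batches 1 and 2, r was 0.801 and 0.312 for MALAT1 and LUCAT1. It was 0.23 and 0.826 for MALAT1 and PVT1, and -0.163 and 0.775 for NEAT1 and PVT1. The libraries share depth and batch, and no more was read from these values.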

How the data were processed

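Poly-A RNA-seq was measured in 42 libraries of 786-O cells, 27 in batch 1 and 15 in batch 2. The deposited files hold raw counts per gene. The authors aligned uniquely mapping reads to hg38 with STAR. Those overlapping GENCODE v32 genes were counted with HTSeq in union mode, without strand. An overlapping gene on the opposite strand can therefore alter a count in either direction. Per the submitters' processing notes the tools were STAR 2.7, SAMtools 1.9 and HTSeq 0.11.1. RNeasy columns with a TruSeq-based kit were used in batch 1, and TRIzol with NEBNext kits in batch 2.

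Groups came from the GEO labels. The members and all gene lists were chosen with earlier results of these data known. Each batch was fitted on its own with edgeR 4.0.16 (R 4.3.3, quasi-likelihood, TMM), all its groups together, on genes with a mean of at least 0.5 normalized counts (23394 and 28757 genes). Calls needed an adjusted p of at most 0.01 and a fold of at least 2. The tests between batches needed only the former and came from a joint fit of 18 libraries, normalized together. SE is the log2 fold change over the square root of F. DESeq2 1.42.0, RLE factors, no filter, a replicate block, fits of only the groups compared and leaving out libraries were the alternatives, and the scripts were tested on simulated data. Positions, biotypes and exon lengths were taken from GENCODE v44, in which 60295 of 60609 gene IDs were found, and sequences from RefSeq. A floor of 3 reads was 2.09 to 4.71 normalized counts in batch 1 and 2.45 to 3.60 in batch 2, and covers counting error only.

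Named genes were the members, the called genes of the fixed lists and within 100 kb of a member, and the 2 genes most correlated with each member that had a mean of at least 50 normalized counts in both batches. Whether equal replicate numbers pair the libraries was checked by correlating deviations from group means. In batch 1 same-numbered libraries had a mean r of 0.242 against -0.12 for others, and every pair was over 0.1 in 7 of 13 comparisons. In batch 2 the mean was 0.00325, with 0 of 5 comparisons.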

Additional observations from a re-analysis of the deposited data

How the results depend on the processing

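Numbers of called members that changed are given here, and the cause of each change was not tested. DESeq2 called 2 members for HIF-1α over HIF-1α R30E and 2 for HIF-2α over HIF-2αDM in batch 1 (1 each in the results above, LUCAT1 added), and 2 for the HIF-2α response between batches (0 above, NEAT1 and MALAT1 added). RLE size factors, and a fit of only the groups compared, gave 2 for HIF-2α over HIF-2αDM. With no filter on low counts, members called were 1 for HIF-2α KIN over WT (0 above, NEAT1), 2 for HIF-1α over R30E, 2 for HIF-2α over R27E (MALAT1 added), 3 for HIF-2α over HIF-2αDM, 2 for HIF-2α over HIF-1α in batch 1 (0 above), 1 for the structured part (0 above, H19) and 2 for the HIF-2α response. With no filter HIF-2α over WT in batch 1 stood at 3, H19 added. With the replicate number as a block they were 2 for HIF-1α over R30E, 2 for HIF-2α over HIF-2αDM, 1 for HIF-2α over HIF-1α in batch 1, 1 for the structured part, 2 for the HIF-1α response and 2 for the HIF-2α response. Apart from these the block changed no count of called members. Without all libraries numbered 3 in batch 1, an alternative chosen after seeing the data, 2 were called for HIF-1α over R30E and 2 for HIF-2α over HIF-2αDM. No called value reversed its direction.

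Leaving out single libraries moved the number of called members between 0 and 1 for HIF-1α R30E over WT, HIF-1α over HIF-1αDM, HIF-2α over R27E, the structured part and the HIF-2α response. It moved between 1 and 2 for HIF-2α over WT in batch 1, HIF-1α over R30E and HIF-1α over WT in batch 2, and between 2 and 3 for HIF-2α over WT in batch 2.

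Counts over all genes moved by more than 1.5 times in these fits. HIF-1αDM over WT went from 107 to 204 (DESeq2), 208 (no filter) and 207 (block), HIF-2α R27E over WT from 116 to 195, 215 and 213, and 3 in the fit of only these groups, and HIF-2αDM over WT from 111 to 200, 209 and 209. With only the groups compared, HIF-1β KIN over WT went from 322 to 183 and HIF-2α over R27E from 849 to 532. The HIF-1α response went from 1 to 9 (no filter) and 154 (block), and the HIF-2α response from 0 to 72 (DESeq2), 124 (no filter) and 1182 (block). Leaving out single libraries took HIF-1αDM over WT from 107 to between 52 and 70 in 5 fits, HIF-2α R27E over WT from 116 to between 62 and 74 in 3, HIF-2αDM over WT from 111 to between 65 and 71 in 4, and HIF-1α over HIF-1αDM from 320 to 198 without HIF-1αDM library 1. It took the HIF-1α response from 1 to 0 in 8 fits and the HIF-2α response from 0 to between 1 and 6 in 4. H19 outside HIF-1α/2α rests on at most 20 reads in a library, and MEG3 on at most 5.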
